A study of Mus musculus with 6 samples.

Results

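Interleukins are secreted proteins through which blood cells signal to each other, and each acts on receptor chains at the surface of the receiving cell. The set described here holds the 76 genes whose symbol begins with Il and a digit and that have a probe set with exactly 1 gene symbol, of 19938 such genes on the array. Where a gene had more than 1 such probe set, the one with the highest mean was used. The set is defined by gene name, though it was chosen with earlier results of these data known. It divides into 36 receptor and decoy receptor genes, 36 ligand genes and 4 others. These 4 are the receptor antagonist genes Il1rn and Il1f5, the binding protein gene Il18bp, and Il1bos, which is named for its place opposite Il1b. Il2rg, which encodes the shared gamma chain, was not analysed here, and neither were Il1r1, Il1rl1, Il11ra1 and Il22.

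RNA came from mouse leukaemic B cells in 2 groups, Jup-/- (KO, 3 arrays) and Jup+/+ (WT, 3 arrays), both on the C57BL/6 background. Jup encodes gamma-catenin, a junction protein related to beta-catenin. In both groups CD45.2+ fetal liver cells of either genotype had reconstituted CD45.1+ mice, and marrow of these chimeras was transduced with a retrovirus that carries BCR-ABL1, the kinase fusion of Philadelphia chromosome-positive leukaemia, and GFP before transplantation into lethally irradiated CD45.1+ hosts. The cells were sorted as GFP+ B220+ BP-1+ CD45.2+ from bone marrow at day 21, so every sample carries BCR-ABL1 and comes from an irradiated host. By their labels the KO cells carried the Jup deletion from the fetal stage. The ages and sexes of the animals, and whether any were pooled, are not given in the sources used here. All levels below are log2 signals after robust multi-array averaging (RMA), a method that removes background, makes the arrays alike in distribution and gives each probe set 1 value from its probes. Differences are KO minus WT on that log2 scale.

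Most interleukins that act on lymphocytes bind type I cytokine receptors, which have no kinase of their own and signal through Janus kinases and STAT proteins. The IL-7 receptor pairs its own alpha chain with the shared gamma chain and is needed for the growth of mouse pre-B cells, while IL-2, IL-4, IL-9, IL-15 and IL-21 use the same gamma chain. The IL-1 and IL-18 receptors belong to another family, which signals through the adaptor MyD88. BCR-ABL1 activates STAT5, the same STAT protein that IL-7 activates.

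Promoter sequences are shown for the receptor gene with the largest difference between the groups, Il12rb2, and for Il7r and Il2ra, bright receptor genes that B cell precursors are known to express. They give the 250 bases before the annotated start from RefSeq (GRCm38.p6), 5′ to 3′ on the strand of the gene. Il12rb2 lies at chr6:67376189-67376438 (minus strand), Il7r at chr15:9529877-9530126 (minus strand) and Il2ra at chr2:11642542-11642791 (plus strand). Capitals mark the letters TTCNNNGAA, the spaced palindrome that STAT proteins can bind, which reads alike on both strands.
Il12rb2: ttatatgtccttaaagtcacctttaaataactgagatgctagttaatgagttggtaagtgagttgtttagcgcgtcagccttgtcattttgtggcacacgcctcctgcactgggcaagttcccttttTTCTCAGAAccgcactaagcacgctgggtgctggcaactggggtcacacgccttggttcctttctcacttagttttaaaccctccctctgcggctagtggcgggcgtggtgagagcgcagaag
Il7r: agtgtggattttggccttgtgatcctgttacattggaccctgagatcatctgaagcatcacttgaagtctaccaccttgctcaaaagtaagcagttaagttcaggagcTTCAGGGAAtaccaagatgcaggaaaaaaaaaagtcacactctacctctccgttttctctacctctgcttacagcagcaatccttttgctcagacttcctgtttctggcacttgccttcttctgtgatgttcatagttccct
Il2ra: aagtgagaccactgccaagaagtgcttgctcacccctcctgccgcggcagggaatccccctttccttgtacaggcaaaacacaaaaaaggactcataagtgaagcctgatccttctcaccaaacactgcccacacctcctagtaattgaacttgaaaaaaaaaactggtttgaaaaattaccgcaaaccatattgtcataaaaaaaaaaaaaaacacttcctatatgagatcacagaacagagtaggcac

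The Il12rb2 window holds the motif once, beginning 123 bases before the start, and the Il7r window once, beginning 142 bases before it. The Il2ra window does not hold these letters. Of the 76 genes, 59 matched a promoter in the table, and 9 of these (15.3%) have the motif in at least 1 window, against 8.13% of 27025 genes of the whole table. The others are Il1r2, Il18r1, Il19, Il1f9, Il1f5, Il1bos and Il31ra, all with means below the array medians. A match describes the letters of the window and does not show that a STAT protein binds there.

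Array medians lay between 7.53 and 7.61, and precision is limited by how few arrays there are. Markers of the sorted cells were bright: 12 B cell genes, among them Ptprc (B220), Enpep (BP-1), Cd79a and Pax5, averaged 12.37 to 12.50 in the KO arrays, against 12.34 to 12.42 in the WT arrays. At an unadjusted limma p under 0.05, 1 was higher and 1 lower in KO (16.7% together, against 9.22% of all probe sets). Rag1 was higher by 0.50 with overlapping groups. Enpep differed by -0.23, with every KO array below every WT array. Ptprc was higher in every KO array (0.19). After adjustment 0 of the 12 passed. Jup itself measured 7.04, 7.06 and 7.27 in KO and 8.04, 7.62 and 8.51 in WT. Every KO array was below every WT array, but the difference of -0.93 (SE 0.20) did not pass (limma, adjusted p = 0.171). By sex-linked transcripts WT replicate 2 stood apart: Xist was at 13.03 to 13.38 in the 3 KO arrays and the other WT arrays, against 6.20 in WT replicate 2. In those 5 arrays the Y-linked transcripts of Kdm5d, Eif2s3y and Uty read between 3.52 and 5.55, a range taken here as the reading of probe sets without a transcript. The 6.20 of Xist in WT replicate 2 lies above this range. Its top may therefore be too low, and genes somewhat above it may be dim as well. The Jup signal of the KO arrays lies above both, and the sources used here do not say whether the Jup probe set covers the deleted part of the gene.

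Levels of the interleukin genes were set in order first. The brightness of a probe set depends on its probes as well as on its RNA, so the order is one of array signal and not of molecules. The 7 brightest genes were all receptors. Receptor genes had a median level of 7.38 (range 3.83 to 11.73), with 16 of 36 above the middle of all 21789 probe sets, and ligand genes a median of 6.33 (range 3.42 to 9.47), with 5 of 36 above it. In all, 21 genes, 8 of them receptors and 12 ligands, had a mean within or below the range of the Y-linked transcripts.

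**Figure D1:**
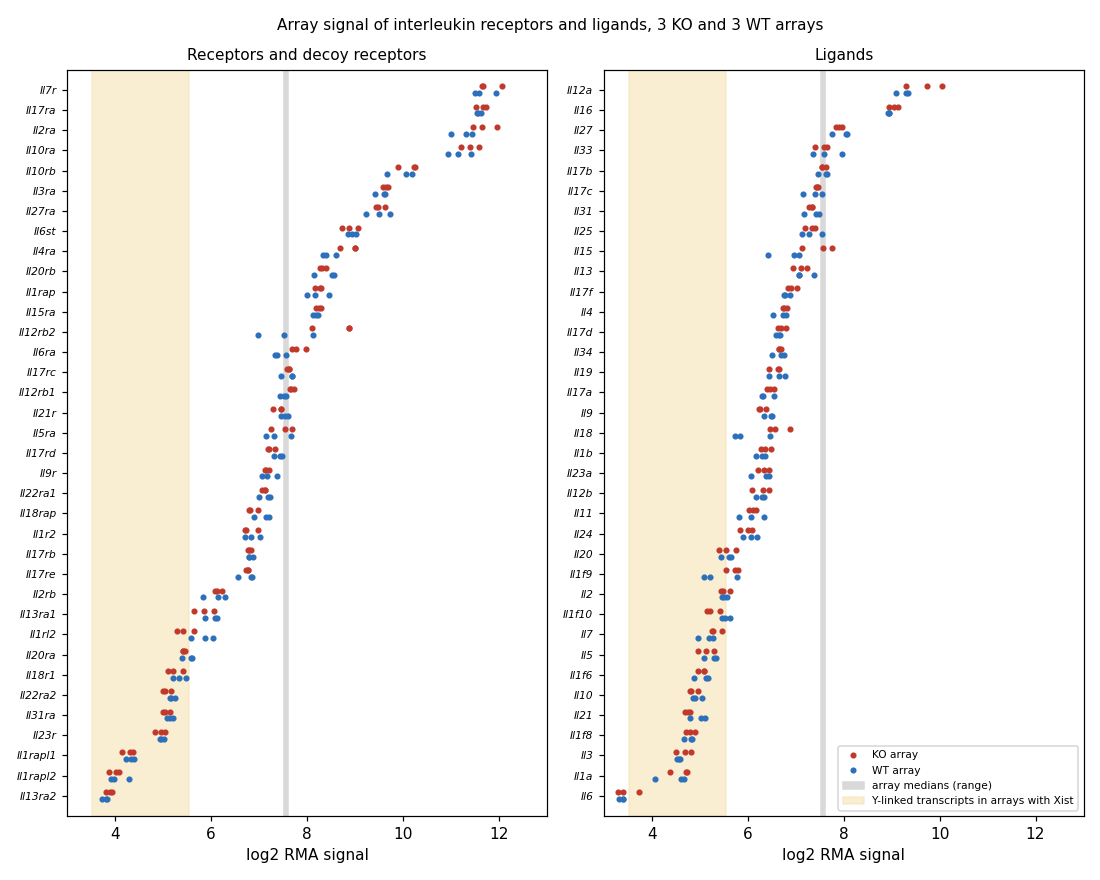
Log2 RMA signal (x axis) of the 36 receptor and decoy receptor genes and the 36 ligand genes (rows, brightest on top), with 1 point for each KO (red) and WT (blue) array. The grey band is the range of the array medians, 7.53 to 7.61, and the yellow band the range of Y-linked transcripts in the 5 arrays with Xist, 3.52 to 5.55. Il7r, Il17ra, Il2ra and Il10ra stand apart from the other receptors, and only Il12a and Il16 of the ligands lie well above the grey band.

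Il7r, the alpha chain of the IL-7 receptor, was the brightest of all. It measured 11.66, 11.64 and 12.07 in the KO arrays, against 11.59, 11.50 and 11.94 in the WT arrays. The groups overlapped, and the highest value of each group came from its replicate 3. The difference was 0.11 (95% interval -0.23 to 0.46), which did not pass (limma, adjusted p = 0.902), and it was -0.026 without KO replicate 3.

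Il17ra, the receptor chain shared by several IL-17 proteins, came second. Its levels were 11.52, 11.74 and 11.68 in KO and 11.62, 11.56 and 11.54 in WT, so the groups overlapped. Il10ra, the ligand-binding chain for IL-10, measured 11.22, 11.58 and 11.39 in KO and 11.42, 11.15 and 10.95 in WT. Its partner Il10rb, which also serves other cytokines of the IL-10 family, was dimmer, at 10.26, 10.24 and 9.91 in KO and 10.19, 10.07 and 9.66 in WT. Both had a higher mean in KO, by 0.22 and 0.16, with overlapping groups and adjusted p of 0.700 and 0.834 in limma. Without WT replicate 3 these differences were 0.11 and 0.0028.

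The other receptors among the 10 brightest, apart from Il2ra and Il4ra, which are given below, differed little between the groups. Il3ra, which with the common beta chain binds IL-3, stood at 9.68, 9.58 and 9.65 in KO and 9.63, 9.61 and 9.41 in WT. Il27ra, a chain of the IL-27 receptor, stood at 9.63, 9.44 and 9.47 in KO and 9.73, 9.24 and 9.50 in WT. Il6st, the signal-transducing chain gp130 of the IL-6 family, stood at 8.87, 9.07 and 8.74 in KO and 9.01, 8.85 and 8.95 in WT. In all 3 the groups overlapped, as they did in Il20rb, a chain of the receptors for IL-20 and its relatives, which had 8.31, 8.27 and 8.40 in KO and 8.15, 8.52 and 8.56 in WT. The differences of these 4 genes lay between -0.08 and 0.09.

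Among the ligands Il12a, which encodes the p35 subunit of IL-12, was brightest, and Il16, a chemoattractant made from a larger precursor protein, came next. Il16 measured 8.94, 9.12 and 9.04 in KO and 8.93, 8.93 and 8.94 in WT. KO replicate 1 lay among the WT values, and the difference was 0.10 (SE 0.08). Il27, a subunit of IL-27, stood at 7.91, 7.84 and 7.96 in KO and 7.76, 8.04 and 8.06 in WT. Il33, an alarmin of the IL-1 family, stood at 7.65, 7.39 and 7.59 in KO and 7.97, 7.60 and 7.36 in WT. The groups overlapped in both genes.

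The next ligands by level lay at the array medians or just below. Il17b was at 7.55, 7.55 and 7.64 in KO and 7.47, 7.64 and 7.63 in WT, and Il17c at 7.44, 7.43 and 7.46 in KO and 7.15, 7.40 and 7.55 in WT. Il31 was at 7.33, 7.27 and 7.34 in KO and 7.17, 7.42 and 7.49 in WT, and Il25, another IL-17 protein, at 7.19, 7.41 and 7.35 in KO and 7.14, 7.55 and 7.27 in WT. In these 4 genes the WT arrays spread over a wider range than the KO arrays and enclosed them. Il7, the ligand of the brightest receptor, averaged 5.33 in KO and 5.15 in WT, within the range of the Y-linked transcripts. Il6 was the dimmest gene of the set, at 3.47 in KO and 3.37 in WT.

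The comparison of KO with WT asked which of these genes differ in leukaemic cells without gamma-catenin. No interleukin or receptor gene passed at a limma adjusted p under 0.05, against 0.119% of all 21789 probe sets, and the lowest adjusted p was 0.260. At an unadjusted limma p under 0.05 there were 11 of 76 (14.5%), against 9.22% of all probe sets. Of these 8 were higher in KO (10.5% of the set, against 4.48% of all) and 3 were lower (3.95%, against 4.73%). Without KO replicate 2 these counts were 5 higher and 0 lower, without KO replicate 3 they were 6 and 0, and without KO replicate 1 or without WT replicate 1 there were 5 lower. Without WT replicate 2, the array that differs in sex-linked transcripts, 7 were higher and 2 lower.

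The mean was higher in KO in 40 of the 76 genes and lower in 36. The median difference was 0.01 over the 76 genes, -0.01 over receptors and 0.02 over ligands, beside -0.02 over all probe sets. The 2 groups lay apart without overlap in 8 genes (10.5%), against 14.0% of all probe sets. In 47 genes the difference was smaller than 0.1, and in 3 it was 0.5 or more (3.95%, against 2.12% of all probe sets). Those 3 were Il12rb2, Il15 and Il18.

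**Figure D2:**
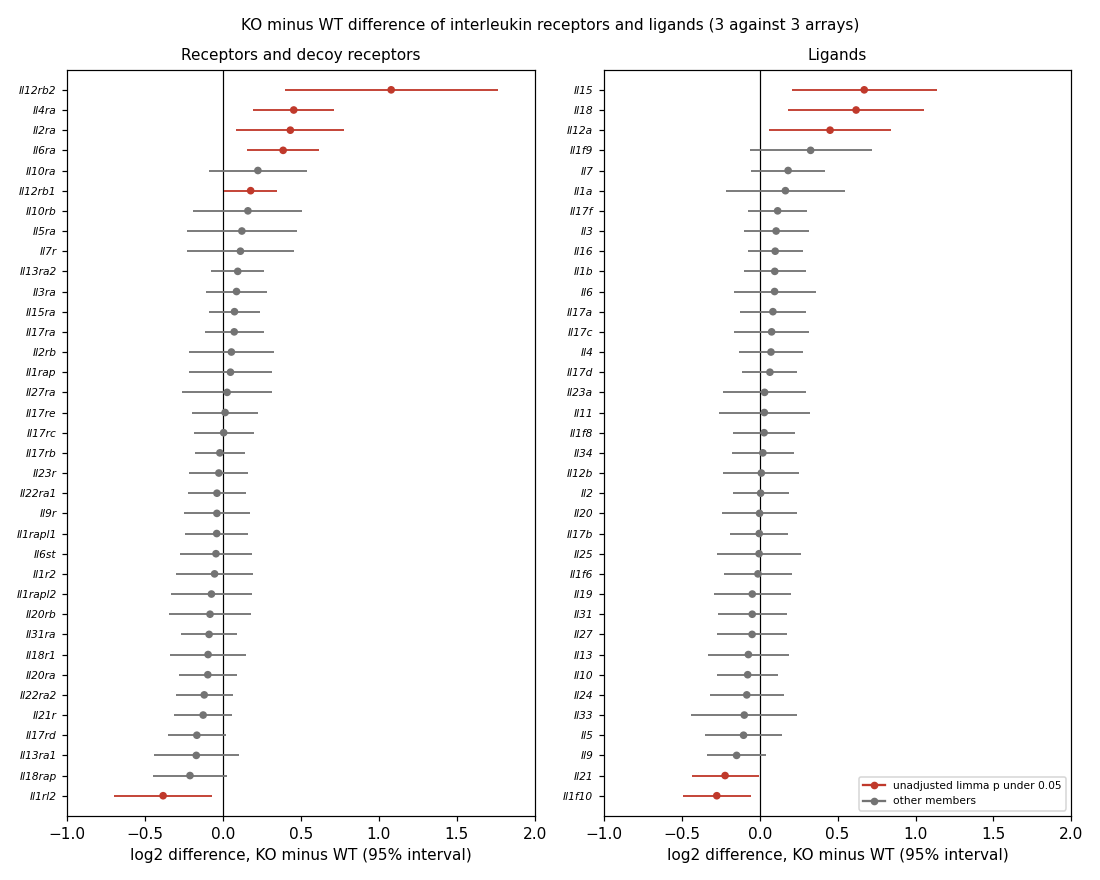
Log2 difference, KO minus WT, of each receptor and ligand gene (rows), with its 95% interval from limma. Red marks the 11 genes with an unadjusted limma p under 0.05. Il12rb2, at 1.08, has the largest difference and also the widest interval, from 0.39 to 1.76, and the other intervals mostly span 0.

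Markers of other cell types are given before the single genes. These lists were chosen with earlier results of these data known, so their shares describe the lists and are no independent test. All 18 neutrophil markers had a higher mean in KO, against 9641 of all 21789 probe sets. At an unadjusted limma p under 0.05 there were 15 (83.3%, against 4.48% of all probe sets higher in KO). At a limma adjusted p under 0.05 there were 3 (Mpo, Elane and Ctsg), against 0.119% of all probe sets in either direction. The mean level of the 18 markers was 8.63 to 8.67 in the KO arrays, against 7.69 to 8.22 in the WT arrays. Mast cell and basophil markers, 9 in number and all below the middle of all probe sets, averaged 6.31 to 6.42 in KO and 6.15 to 6.19 in WT. Of these 7 had a higher mean in KO, and the protease genes Cpa3 (0.48), Mcpt8 (0.52) and Prss34 (0.27) did so at an unadjusted p under 0.05, 3 of 9 (33.3%) against 4.48% of all probe sets. For 8 monocyte and macrophage markers the ranges were 6.62 to 6.67 in KO and 6.47 to 6.69 in WT. In this list 4 had a higher mean in KO. Of the 8, Lyz2 (0.64) and Ccr2 (0.22) were higher at an unadjusted limma p under 0.05 (25%, against 4.48% of all probe sets). Stromal and endothelial markers, 10 in number, averaged 7.07 to 7.13 in KO and 7.09 to 7.22 in WT. Of these 1 passed at a limma adjusted p under 0.05, against 0.119% of all probe sets. Sparc, a matrix protein gene, fell to 7.08, 7.09 and 7.15 in KO, against 8.26, 7.92 and 8.02 in WT (difference -0.96, limma adjusted p = 0.0198). With 1 array left out the limma adjusted p of Sparc missed the threshold without KO replicate 2 (0.114), KO replicate 3 (0.110) or WT replicate 3 (0.0627). That of Ctsg missed it when KO replicate 3, or else replicate 1 or 3 of WT, was left out (0.0529 to 0.0996), that of Elane without any array but KO replicate 1 (0.0551 to 0.123), and that of Mpo stayed below it. The part of these cells in the differences described here was not tested, and in bulk RNA more cells of a type and more RNA per cell cannot be told apart.

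The IL-12 branch held the largest difference. Il12rb2 encodes the IL-12 receptor chain through which STAT4 is activated. It measured 8.89, 8.88 and 8.11 in the KO arrays, against 8.13, 7.52 and 6.98 in the WT arrays. The lowest KO array, replicate 3, lay just under the highest WT array, replicate 1, and both groups were widely spread. The mean was 8.63 ± 0.45 in KO and 7.55 ± 0.58 in WT (SD, n = 3 each), 2.11-fold higher in KO (difference 1.08, SE 0.30), which missed the threshold (limma, adjusted p = 0.308). With any 1 array left out the difference was between 0.80 and 1.37.

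Il12rb1, the chain that pairs with Il12rb2 and also serves IL-23, lay at the array medians. Its levels were 7.72, 7.64 and 7.67 in KO and 7.43, 7.55 and 7.52 in WT. The groups did not overlap, but the difference was only 0.18 (SE 0.07, limma adjusted p = 0.518). Il12a measured 9.31, 9.74 and 10.04 in KO and 9.35, 9.09 and 9.30 in WT. KO replicate 1 lay among the WT arrays and the other KO arrays above them, with a difference of 0.45 (SE 0.17, limma adjusted p = 0.465) that was 0.28 without KO replicate 3. Il12b, the p40 subunit that completes IL-12 and IL-23, was dim, at 6.28 in KO and 6.27 in WT. Il23a and Il23r, which belong to IL-23, gave differences of 0.03 and -0.03.

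Markers of T and NK cells, which use the IL-12 receptor, were read beside this result. Over 13 such genes the mean level was 6.93 to 7.08 in the KO arrays, against 6.92 to 7.07 in the WT arrays. An unadjusted p under 0.05 was reached by 3 of them (23.1%, against 9.22% of all probe sets), 1 higher and 2 lower in KO. The higher one was Nkg7, a granule protein gene, at 7.47 in KO and 6.98 in WT. The lower ones were Klrb1c, the NK1.1 receptor gene, at 6.30 in KO and 7.09 in WT, and Cd8a, at 6.73 in KO and 6.96 in WT. Of all the markers 10 of 13 lay below the middle of all probe sets. Those above it were Cd2, at 11.99 in KO and 11.77 in WT, Thy1, at 8.10 and 7.99, and Cd5, at 7.68 and 7.82. Among those below it, Cd3e, Cd3d and Cd3g averaged 7.31, 5.98 and 5.47 in KO and 7.34, 5.90 and 5.36 in WT. Ncr1, an NK cell receptor, averaged 4.98 in KO and 5.02 in WT.

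Receptors of the gamma chain family gave 2 of the 11 genes. Il2ra, the alpha chain CD25 that raises the affinity for IL-2 and is found on pre-B cells, was at 11.64, 11.95 and 11.46 in KO and 11.44, 11.32 and 11.00 in WT. The groups did not overlap, though KO replicate 3 and WT replicate 1 nearly met. The difference was 0.43 (SE 0.15), or 1.35-fold, and did not pass (limma, adjusted p = 0.425). It was lowest, at 0.30, without KO replicate 2.

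Il4ra, the alpha chain for IL-4 and a part of the IL-13 receptor, measured 8.68, 8.99 and 9.003 in KO and 8.60, 8.33 and 8.39 in WT. All KO arrays were above all WT arrays. The mean was 8.89 ± 0.18 in KO and 8.44 ± 0.14 in WT (SD, n = 3 each), and its adjusted p of 0.260 in limma was the lowest of the set. Il13ra1, the chain with which Il4ra binds IL-13, averaged 5.86 in KO and 6.03 in WT, with a difference of -0.17 that did not pass either. The remaining gamma chain receptors gave differences of 0.07 for Il15ra, 0.05 for Il2rb, -0.04 for Il9r and -0.13 for Il21r.

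Il15, a ligand that is usually presented to its target bound to Il15ra, had the second largest difference. Its levels were 7.13, 7.76 and 7.57 in KO and 7.07, 6.97 and 6.41 in WT. The groups did not overlap, but KO replicate 1 was only just above the highest WT array. KO was 1.59-fold higher, with a difference of 0.67 (SE 0.20, limma adjusted p = 0.356). Il21, the only gamma chain ligand with a lower KO mean at an unadjusted p under 0.05, was at 4.80, 4.70 and 4.76 in KO and 5.01, 4.80 and 5.11 in WT. These values lie within the range of the Y-linked transcripts, and while the groups did not overlap, KO replicate 1 and WT replicate 2 were almost equal.

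In the IL-1 family Il18, a ligand that is stored as a precursor and cut by caspase-1, measured 6.57, 6.87 and 6.47 in KO and 6.47, 5.85 and 5.74 in WT. WT replicate 1 came close to the KO arrays while the other WT arrays were well below. These lower values lie under the 6.20 that Xist read in WT replicate 2, so they are dim. The difference was 0.62 (SE 0.19, limma adjusted p = 0.359). Its binding protein gene Il18bp averaged 9.22 in KO and 9.23 in WT, and the receptor chain genes Il18r1 and Il18rap gave -0.10 and -0.21. Il1b and Il1a, the IL-1 ligands, gave 0.10 and 0.16 without passing, and the decoy receptor Il1r2 gave -0.05.

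Il1rl2, the receptor for IL-36, was at 5.64, 5.28 and 5.42 in KO and 5.87, 6.05 and 5.58 in WT, so that KO replicate 1 exceeded WT replicate 3. Il1f10, which encodes the ligand IL-38, was at 5.43, 5.22 and 5.14 in KO and 5.46, 5.53 and 5.63 in WT, without overlap. Their differences were -0.38 (SE 0.14, limma adjusted p = 0.437) and -0.28 (SE 0.10, adjusted p = 0.423). Both are dim genes, Il1f10 with a mean within the range of the Y-linked transcripts and Il1rl2 with one near its upper end. Together with Il21 they are the 3 lower genes of the set, and none of the 3 was tested with dim probe sets left out.

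Il6ra, the ligand-binding chain for IL-6, lay near the array medians at 7.70, 7.97 and 7.78 in KO and 7.34, 7.37 and 7.57 in WT. All KO arrays were above all WT arrays. The difference was 0.39 (SE 0.10), or 1.31-fold, and did not pass (limma, adjusted p = 0.280).

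**Figure D3:**
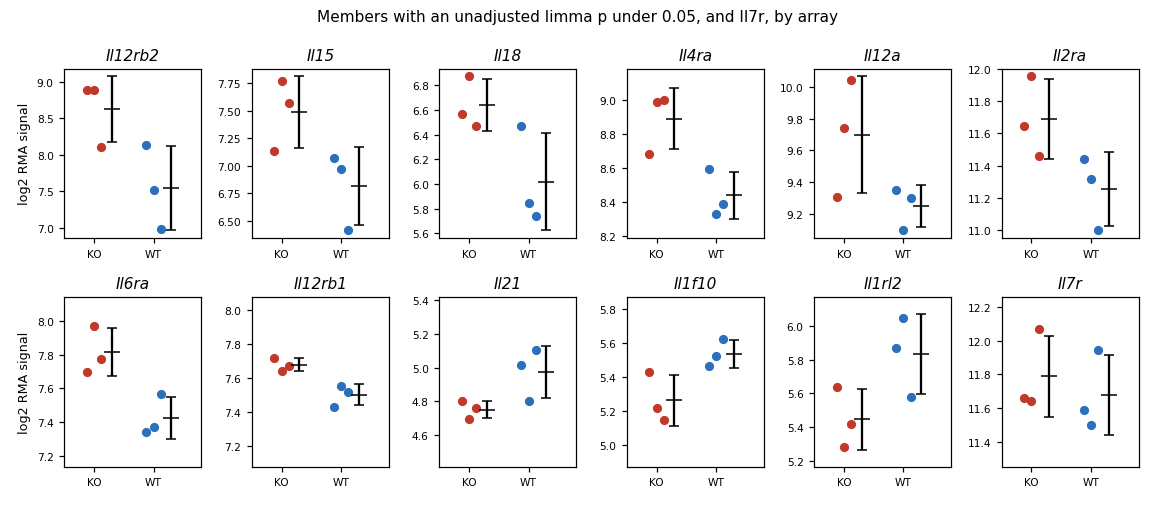
Log2 RMA signal (y axis, its own range in each panel) of the 11 genes with an unadjusted limma p under 0.05, and of Il7r, in the KO (red) and WT (blue) arrays, with the mean and SD of each group (n = 3). The arrays of Il12rb2 reach from 6.98 to 8.89 with a narrow overlap, those of Il4ra and Il6ra are separate, and those of Il7r coincide.

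Genes that carry the signal of these receptors were read next, 29 measured of 32 listed. At a limma adjusted p under 0.05, 0 of them passed. An unadjusted p under 0.05 was reached by 7 (24.1%, against 9.22% of all probe sets), with 4 higher and 3 lower in KO, and the median difference was 0.03. The 3 lower ones belong to the JAK-STAT pathway, as do Stat5a, Stat5b and Stat6, which had a higher mean in KO. Cish, a feedback inhibitor that STAT5 induces, was at 10.19, 10.41 and 10.21 in KO and 10.95, 10.81 and 10.61 in WT. Socs3, which restrains gp130 receptors, was at 8.84, 8.99 and 9.15 in KO and 10.17, 9.46 and 9.71 in WT. Stat4, which acts below Il12rb2, was at 11.74, 11.74 and 11.91 in KO and 12.06, 12.25 and 12.03 in WT. In each of the 3 every KO array was below every WT array, and the adjusted p were 0.166, 0.178 and 0.330 in limma. The other Socs genes measured, Socs1, Socs2 and Socs5, gave -0.16, 0.10 and -0.12 with overlapping groups. The activity of STAT proteins was not tested.

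The higher ones with the lowest p were Tirap, an adaptor of Toll-like receptors (0.42, SE 0.15), the phosphatase gene Ptpn6 (0.26, SE 0.09) and Pycard, the inflammasome adaptor (0.36, SE 0.13), with adjusted p of 0.433 to 0.443 in limma. The kinase Jak1, which serves gamma chain, gp130 and IL-10 receptors, was bright and gave -0.08 (SE 0.08). Stat5a was at 9.89, 9.88 and 9.86 in KO and 9.76, 9.79 and 9.83 in WT, and Stat5b at 9.88, 10.17 and 9.99 in KO and 9.83, 9.74 and 9.84 in WT. Their differences of 0.08 and 0.21 did not pass, although neither gene had overlapping groups. Casp1, which cuts the IL-18 precursor, gave -0.05, and Myd88 -0.17.

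Related cytokine and receptor genes without an interleukin name, 25 measured of 27 listed, had a median difference of -0.05, with 6 higher and 3 lower at an unadjusted p below 0.05 (36% of the list, against 9.22% of all probe sets) and 0 past the adjusted threshold in limma. Lif, a ligand of the gp130 family, was at 7.14, 6.74 and 6.82 in KO and 8.13, 7.67 and 7.55 in WT, a difference of -0.88 (SE 0.16, limma adjusted p = 0.119). Its receptor gene Lifr was at 7.16, 7.46 and 7.26 in KO and 6.92, 6.70 and 6.22 in WT, a difference of 0.68 (SE 0.17, adjusted p = 0.257). The groups did not overlap in either gene. Osm, another gp130 ligand, gave -0.27 and its receptor Osmr -0.18, and Csf1 gave -0.32 and its receptor Csf1r -0.11, all without passing.

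Flt3l, the ligand of a kinase receptor of early progenitors, measured 8.27, 8.45 and 8.44 in KO and 8.01, 7.77 and 7.79 in WT. Flt3, the receptor, measured 6.72, 6.70 and 6.83 in KO and 7.10, 6.90 and 7.00 in WT. The ligand was higher in every KO array and the receptor lower, with differences of 0.53 (SE 0.09) and -0.25 (SE 0.08) and adjusted p of 0.110 and 0.406 in limma. Ifngr1, the ligand-binding chain for interferon gamma, was at 11.05, 10.89 and 10.90 in KO and 11.40, 11.41 and 11.32 in WT (difference -0.43, SE 0.08, limma adjusted p = 0.123). Clcf1, another gp130 ligand, was at 7.56, 8.24 and 7.98 in KO and 7.28, 7.48 and 7.39 in WT.

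Partner chains of the interleukin receptors were among these genes. Csf2rb, the common beta chain that pairs with Il3ra and Il5ra, averaged 11.29 in KO and 11.05 in WT, a difference of 0.24 (SE 0.10, limma adjusted p = 0.529). Csf2rb2, a second mouse beta chain that pairs with Il3ra, was at 10.48, 10.68 and 10.26 in KO and 10.29, 9.84 and 9.98 in WT. The groups overlapped narrowly, with a difference of 0.44 (SE 0.14, limma adjusted p = 0.382). Crlf2, which joins Il7r in the receptor for TSLP, averaged 9.29 in KO and 9.28 in WT. Its ligand Tslp was at 3.93 in KO and 3.95 in WT, within the range of the Y-linked transcripts.

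**Figure D4:**
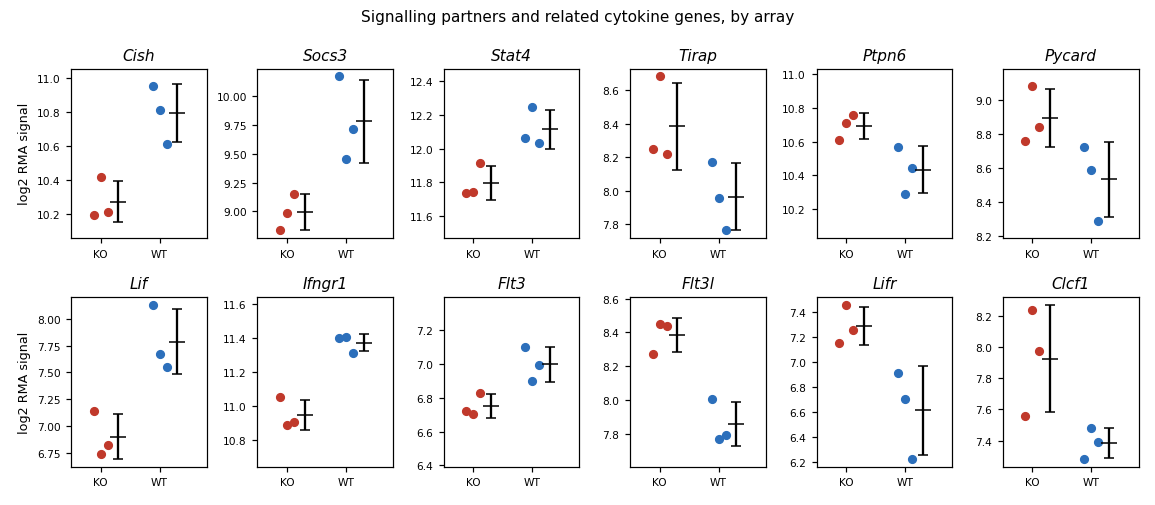
Log2 RMA signal (y axis, its own range in each panel) of 6 signalling partners (upper row) and 6 related cytokine or receptor genes (lower row) in the KO (red) and WT (blue) arrays, with the mean and SD of each group (n = 3). These are the 3 genes with the lowest p in each direction of each list. The Lif arrays lie between 6.74 and 7.14 in KO and between 7.55 and 8.13 in WT.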

How the data were processed

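Per the submitters' processing notes, the authors' deposited log2 values come from Affymetrix Expression Console 1.1 and its RMA method, with options not given in the sources used here. RMA removes shifts common to an array and compresses changes of dim transcripts. The table held 35556 rows, of which 21789 have exactly 1 symbol in the platform annotation and were tested. The comparison used limma (version 3.58.1, R 4.3.3) with lmFit and eBayes, two-sided, without covariate or filter, and Benjamini-Hochberg adjustment over all 21789 and a threshold of 0.05. The fit was tested on simulated data. Of the 76 genes all matched RefSeq by gene ID, and 3 have more than 1 probe set. The members, the lists and the markers were chosen with earlier results of these data known. Genes are named by a fixed rule: Il7r and Il2ra, the 10 brightest receptors, the 8 brightest ligands, those with an unadjusted p under 0.05, the 5 largest differences, and partners of these. Il1a, Il1b and Il1r2 lie outside this rule, as do some genes named for their role, promoter motif, neighbours or number of probe sets. Of each pathway list the 3 lowest p in each direction are named, with Jak1, Stat5a, Stat5b, Crlf2 and Csf2rb. Casp1, Myd88, Socs1, Socs2, Socs5, Tslp, Csf2rb2, Osm, Osmr, Csf1 and Csf1r were added after their values were seen. So were the single markers of the sorted cells and of other cell types. Replicates are labelled biological, but what separates them is not stated, so p-values measure the spread between these samples. Arrays of equal replicate number deviated together in only some pairs (r = 0.104, -0.004 and 0.275 across probe sets), so no pairing was used. Promoter sequences came from RefSeq (GRCm38.p6).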

Additional observations from a re-analysis of the deposited data

How the results depend on the processing

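No interleukin gene passed in any of the 14 alternatives run on the counts, and for the 26 genes given by array no adjusted p fell below 0.05 in any of them. Of their 361 recomputed differences 344 kept their sign. The exceptions came from 9 genes with main differences near 0. With each array left out in turn, Il7r ranged from -0.026 to 0.24, Il27ra from -0.10 to 0.15, Il6st from -0.14 to 0.033, Il27 from -0.15 to 0.0058, Il33 from -0.24 to 0.063, Il17b from -0.060 to 0.027, Il17c from -0.032 to 0.17, Il31 from -0.14 to 0.016 and Il25 from -0.095 to 0.11. A further quantile normalization gave 0.0065 for Il25, and centring on array medians gave 0.0020 for Il17b and 0.00092 for Il25. The count at an unadjusted p under 0.05, 8 higher and 3 lower, had 0 lower with dim probe sets left out (32 of 76 genes tested) and 6 lower with array weights. With each array left out in turn it ranged from 5 to 8 higher and from 0 to 5 lower. In all 6 of these fits the unadjusted limma p stayed under 0.05 for Il12rb2, Il4ra, Il6ra, Il15 and Il18. It did so in 4 for Il2ra, in 3 each for Il12a and Il1f10, in 2 for Il1rl2, in 1 for Il21 and in 0 for Il12rb1. Over all probe sets, 11 higher and 15 lower passed. The counts were 17 and 23 with a trended and robust prior, 93 and 57 with array weights, 7 higher with quantile normalization, 17 higher with centring, and 59 lower over all rows. They were 13 higher and 20 lower with 1 probe set per gene. With each array left out in turn they ranged from 1 to 41 higher and from 3 to 41 lower. The cause of these moves was not tested. With the replicate number as a block 8 higher and 11 lower passed, again 0 of them interleukin genes, and Il12rb2 had an adjusted p of 0.0641 in limma. Across its alternatives the adjusted p of Il12rb2 was 0.0641 to 0.829 and that of Il4ra 0.0610 to 0.769. Dim genes limit the set, since 21 of 76 lie within or below the range of absent Y-linked transcripts.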

Other observations

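Several of the genes neighbour each other in RefSeq order (GRCm38.p6), with at most 1 other protein-coding gene between them. On chromosome 1 the measured genes of the IL-1 receptor cluster, Il1r2, Il1rl2, Il18r1 and Il18rap, gave differences of -0.05, -0.38, -0.10 and -0.21, a lower KO mean in each. Il24, Il20, Il19 and Il10, also neighbours on chromosome 1, gave -0.08, -0.001, -0.05 and -0.08. Of all 21789 probe sets 12148 had a lower KO mean. Other clusters went either way. Il17a and Il17f gave 0.08 and 0.11, Il22ra2 and Il20ra -0.12 and -0.10, and Il4, Il13 and Il5 0.07, -0.07 and -0.10. Neighbours of the genes with larger differences gave smaller ones: Il12rb2 with 1.08 lies beside Il23r with -0.03 on chromosome 6, Il4ra with 0.45 beside Il21r with -0.13 on chromosome 7, and Il2ra with 0.43 beside Il15ra with 0.07 on chromosome 2. On the same chromosome, in a cluster of 6 measured genes, Il1f9 gave 0.33 and Il1f10 -0.28, both with means within the range of the Y-linked transcripts. The rest of this cluster, Il1f8, Il1f6, Il1f5 and Il1rn, gave 0.03, -0.01, -0.13 and -0.004. Whether neighbours differ from each other was not tested, and none of these values passed at a limma adjusted p under 0.05.

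Of the 3 genes with more than 1 probe set, Il20rb gave -0.08 on its brightest and 0.02 on both others, Il17rd -0.17 and -0.03, and Il22ra1 -0.04 and -0.03.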
